A study of Homo sapiens with 6 samples.

Results

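The 48 genes whose symbol is PSM followed by a letter from A to G and a number encode the subunits of the proteasome, its activators and its assembly chaperones. They were chosen by symbol alone out of 56303 genes in the deposited count table, and 46 of them had enough counts to be tested. The libraries came from SW480, a human colorectal adenocarcinoma line, infected with lentivirus carrying either a nonsilencing hairpin (shCtrl, labelled WT) or a hairpin against MORC2 (shMORC2, labelled MORC2 knockdown). MORC2 is a nuclear ATPase of the microrchidia family. Each group held 3 libraries, and both lines were grown in the same medium with serum. The study's methods describe selection of stable clonal lines with puromycin, so a difference between the 2 cell lines cannot be told apart from the knockdown. The methods speak of 3 replicate experiments per group without saying whether these began from separate infections, and the p-values measure the spread between these libraries. Values are RNA from whole cultures, in which a change in the number of cells of one kind and a change in RNA per cell cannot be told apart.

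Total counts ran from 42092664 to 43434425 per library, and no library stood apart in depth. MORC2 itself was at 46.1, 46.4 and 48.8 CPM (counts scaled to a library size of 1e6) in shCtrl and 35.03, 29.3 and 27.2 CPM in shMORC2, or 64.7% of the shCtrl level (log2 fold change -0.63, SE 0.10, adjusted p 0.000216 by edgeR's quasi-likelihood test). Of 8 markers of colorectal epithelium, 7 exceeded 1 CPM in every library, and CDH17 did not. A list of 4 fibroblast markers, mostly COL1A1, summed to 9.81 to 12.39 CPM in shCtrl and 12.42 to 12.6 CPM in shMORC2, without overlap, and its part in the results was not tested.

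The proteasome is the protease that breaks down most ubiquitin-tagged proteins of the cell. Its barrel-shaped 20S core is built of rings of alpha subunits (PSMA genes) around rings of beta subunits (PSMB genes), of which PSMB5, PSMB6 and PSMB7 carry the active sites. The 19S regulatory particle caps the core. Its ring of ATPases (PSMC genes) unfolds substrates, and its non-ATPase subunits (PSMD genes) bind ubiquitin and cleave it off. In cells exposed to interferon, and in blood cells without stimulation, PSMB8, PSMB9 and PSMB10 replace the constitutive active subunits to form the immunoproteasome, which favours peptides suited to MHC class I.

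More proteasome genes were higher than lower in shMORC2. Of the 46 tested, 19 passed an adjusted p of 0.05 with a rise in shMORC2, 2 passed it with a fall, and 25 were not called. The calls higher made up 41.3% of the tested members, where 19.9% of all 21005 genes tested were called higher. The calls lower made up 4.35%, where 19.6% of all genes were called lower. Calls in either direction came to 45.7%, against 39.5% over all genes. Their median log2 fold change was 0.14, and that of all genes was -0.0056. The CPM ranges of the 2 groups did not overlap, with shMORC2 higher, for 21 members, and for 25.1% of all genes. They did not overlap with shMORC2 lower for 5 members, again against 25.1% of all genes (50.2% in either direction). Among genes with a mean count within the range of the tested members, 22.5% were called higher and 24% lower. With a log2 fold change of at least 0.5 asked for besides, 7 of the 46 were called higher and 0 lower, against 12.2% and 10.2% of all genes. At this threshold the share of members called higher was thus close to that of all genes. With the replicate number as a block, 23 members were called higher and 3 lower, against 24.4% and 24.5% of all genes (49% in either direction). DESeq2 called 19 members higher and 2 lower, against 16.2% and 15.8% of all genes (32% in either direction). Without TMM scaling 19 were called higher and 3 lower, against 19.1% and 19.6% of all genes (38.7% in either direction). The plot of fold changes by class shows that the called members were spread over every class.

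**Figure D1:**
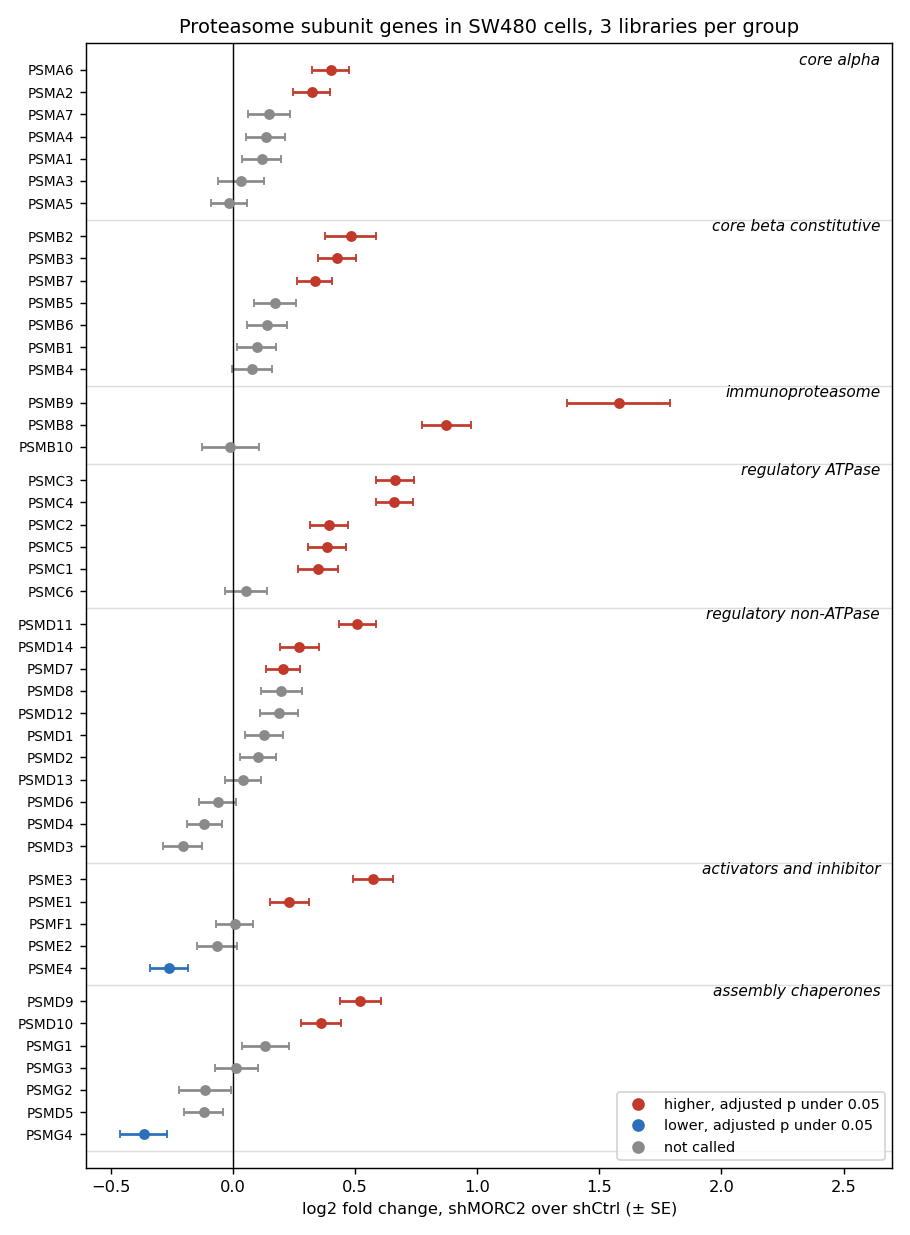
Fitted log2 fold change of shMORC2 over shCtrl (x axis, bars are 1 SE) for the 46 tested members, ordered within each class. Red points were called higher, blue points lower and grey points neither, at an adjusted p under 0.05. PSMB9 and PSMB8 lie farthest to the right, PSMC1 to PSMC5 are all red, and PSMG4 and PSME4 are the 2 blue points.

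The immunoproteasome genes did not move as one. PSMB8 and PSMB9 were the 2 members with the highest fold changes, and PSMB10 did not differ beyond the spread of its libraries. PSMB8 (chromosome 6, 32840717 to 32844703, minus strand, GRCh38), which takes the place of PSMB5, was at 11.4, 12.98 and 12.1 CPM in shCtrl and 20.2, 21.98 and 24.6 CPM in shMORC2. Every shMORC2 library was above every shCtrl library, and the log2 fold change was 0.87 (SE 0.10, adjusted p 2.59e-05), a 1.83-fold rise. PSMB9 (chromosome 6, 32844136 to 32859585, plus strand), which takes the place of PSMB6, was low throughout. It had 54, 36 and 38 counts in shCtrl and 131, 142 and 113 counts in shMORC2. The groups did not overlap, and its log2 fold change was 1.58 (SE 0.21, adjusted p 7.64e-05), a 2.99-fold rise. PSMB10 (chromosome 16, 67934502 to 67937087, minus strand), which takes the place of PSMB7, was at 13.7, 10.7 and 13.6 CPM in shCtrl and 13.2, 11.4 and 13.1 CPM in shMORC2. These ranges lay within each other, with a log2 fold change of -0.01 (SE 0.12, adjusted p 0.951). No member of a list of 6 markers of blood cells, which carry the immunoproteasome, exceeded 1 CPM in every library. The list summed to 0.292 to 0.593 CPM in shCtrl and to 0.845 to 0.969 CPM in shMORC2, and its part in the result was not tested. PTPRC, the marker shared by white blood cells, had no count in shCtrl and at most 6 counts in shMORC2.

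The active subunits are made as constitutive and immunoproteasome counterparts that compete for the same place, so each pair was compared within a library on RPKM, which scales by exon length. PSMB8 stood at 20.6%, 24.6% and 19.4% of PSMB5 in the shCtrl libraries and at 33.8%, 33.1% and 37.5% in the shMORC2 libraries. The log2 ratio was higher in shMORC2 by 0.70, and the groups did not overlap. PSMB9 stood at 1.24%, 0.936% and 0.913% of PSMB6 in shCtrl and at 2.98%, 3.18% and 2.31% in shMORC2, a difference of 1.46 in the log2 ratio, again without overlap. PSMB10 went the other way against PSMB7, from 19.8%, 15.4% and 18.8% to 15.5%, 12.8% and 14.3%, a difference of -0.34 in the log2 ratio with overlapping groups. The exact two-sided permutation p (n = 3 per group) was 0.1, 0.1 and 0.2 for the 3 pairs, or 0.15, 0.15 and 0.2 after adjustment over them. With 3 against 3 libraries such a test cannot go below 0.1, so none could pass 0.05. Within pairs of libraries with the same replicate number, a comparison added after the data were seen, the log2 ratio differed in 1 direction in all 3 pairs for each of the ratios. The differences were 0.71, 0.43 and 0.95 for PSMB8 to PSMB5, 1.26, 1.77 and 1.34 for PSMB9 to PSMB6, and -0.35, -0.27 and -0.40 for PSMB10 to PSMB7. The exact two-sided sign-flip p was 0.25 for each, the smallest that 3 pairs allow. In shMORC2 the constitutive subunits still outnumbered their counterparts in every library.

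**Figure D2:**
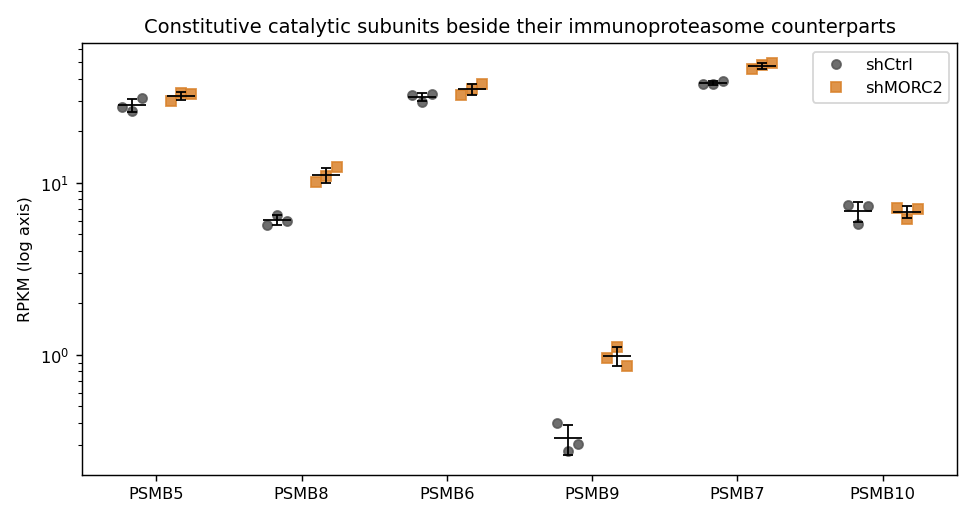
RPKM (log axis) of each constitutive catalytic subunit beside its immunoproteasome counterpart in the 3 shCtrl (grey circles) and 3 shMORC2 (orange squares) libraries, with the mean (dash) and SD (bars). PSMB8 and PSMB9 lie higher in every shMORC2 library, PSMB10 overlaps, and PSMB9 reaches at most 1.11 RPKM.

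Of the constitutive active subunits, PSMB7 was called and PSMB5 and PSMB6 were not. PSMB5 was at 48.8, 46.4 and 54.8 CPM in shCtrl and 52.7, 58.4 and 57.8 CPM in shMORC2. The groups overlapped and it was not called (log2 fold change 0.17, SE 0.08, adjusted p 0.123), while with the replicate block it was (adjusted p 0.0319). PSMB6 was at 46.8, 42.9 and 47.7 CPM against 46.8, 50.5 and 54.2 CPM and was not called (log2 fold change 0.14, adjusted p 0.198). PSMB7 was at 66.7, 67.01 and 69.8 CPM in shCtrl and 82.2, 86.1 and 88.4 CPM in shMORC2. It rose without overlap of the groups (log2 fold change 0.33, SE 0.07, adjusted p 0.00256).

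The stretches just before the start sites of the 3 immunoproteasome genes and of PSME2, a partner in the same interferon-induced system, are shown because these genes are grouped by their known induction and parted here in their levels. They are RefSeq promoters on GRCh38.p14, read 5′ to 3′ on the strand of the gene. Capitals mark a match to GAAA, any 2 bases and GAAA again, the core of the interferon-stimulated response element. In PSMB9 they mark a match, on the other strand, to TGACNNNGC, the core of the antioxidant response element. Both strands were searched. The stretch shown is 150 bases long for PSMB9 and 100 bases long for the other genes. PSME2 also held a match to TGACNNNGC, 175 to 167 bases before its start and outside the stretch shown. PSME1, which is not shown, held one 86 to 78 bases before its start.
PSMB8, chr6:32844680-32844779, minus strand: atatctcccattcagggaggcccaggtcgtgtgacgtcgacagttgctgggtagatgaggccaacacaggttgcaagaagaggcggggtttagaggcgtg
PSMB9, chr6:32854042-32854191, plus strand: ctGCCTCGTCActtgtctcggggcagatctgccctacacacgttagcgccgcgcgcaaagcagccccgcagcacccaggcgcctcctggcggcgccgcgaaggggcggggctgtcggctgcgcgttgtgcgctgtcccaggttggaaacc
PSMB10, chr16:67936851-67936950, minus strand: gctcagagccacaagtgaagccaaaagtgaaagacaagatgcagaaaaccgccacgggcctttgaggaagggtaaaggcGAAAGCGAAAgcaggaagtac
PSME2, chr14:24146611-24146710, minus strand: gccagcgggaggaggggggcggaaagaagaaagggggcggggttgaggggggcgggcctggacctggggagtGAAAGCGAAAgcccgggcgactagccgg

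The match to the interferon element lay 21 to 12 bases before the start in PSMB10 and 28 to 19 bases before it in PSME2, and neither gene was called. RefSeq gives PSMB8 a second start inside the gene, and neither entry held a match within 250 bases. Of the 48 members, 42 had a RefSeq promoter, with 51 entries in all. Over the 250 bases before the start, 5 of the 51 entries held that element's letters, or 9.80%, against 3.02% of all 35116 promoter entries. None of the 21 entries of members called higher did, and at the share of all entries a set this small could hold none. The letters were in 4 of the 26 entries of members not called and in 1 of the 2 of members called lower. That 1 was PSMG4, with the match 33 to 24 bases before the start. The letters TGACNNNGC were found in 13 of the 51 entries, or 25.5%, against 10.9% of all entries. They were in 23.8% of the entries of members called higher and 26.9% of the entries of members not called. These are matches of letters in a short window and show no binding. Only these 2 patterns were searched, and their part in the calls was not tested.

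PSMB8 and PSMB9 lie in the MHC class II region of chromosome 6, among the genes of the peptide transporter TAP. Their neighbours were looked at after the values were seen. TAP1 (32845209 to 32853978, minus strand), which lies inside the annotated span of PSMB9, rose from 12.2, 12.8 and 12.9 CPM to 15.01, 19.2 and 16.95 CPM (log2 fold change 0.43, SE 0.11, adjusted p 0.00575). By the RefSeq start of PSMB9, whose stretch shown above begins at 32854042, TAP1 lies between PSMB8 and PSMB9. TAP2 (32821833 to 32838780, minus strand), which encodes the partner chain of the transporter and lies on the far side of PSMB8, fell from 34.9, 33.5 and 36.3 CPM to 25.97, 23.2 and 25.5 CPM (log2 fold change -0.49, SE 0.08, adjusted p 0.000464). The rise was thus not shared by all genes of this stretch. PSMB8-AS1, an antisense RNA gene, shares 425 of the 2006 exonic bases of PSMB8 on the other strand and 174 of the 3072 of PSMB9 on the same strand. It rose as well, from 80, 87 and 100 counts to 166, 197 and 205 counts (log2 fold change 1.07, SE 0.17, adjusted p 0.000355). How reads in shared exons were assigned is not given in the sources used here.

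In the 20S core, 2 of 7 alpha subunits (28.6%) and 3 of 7 constitutive beta subunits (42.9%) rose, against 19.9% of all genes called higher. None fell, against 19.6% of all genes called lower, and at that share a class this small could hold none. The median log2 fold changes of the alpha and constitutive beta subunits were 0.13 and 0.17. PSMA6, an alpha ring subunit, was at 70.2, 68.3 and 74.9 CPM in shCtrl and 89.9, 99.3 and 92.6 CPM in shMORC2 (log2 fold change 0.40, SE 0.08, adjusted p 0.00107). PSMA2, another ring subunit, rose from 37.1, 34.99 and 37.1 CPM to 44.2, 46.7 and 45.6 CPM (log2 fold change 0.32, SE 0.07, adjusted p 0.00414). Both were without overlap between the groups. In the beta rings the structural subunit PSMB2 rose from 24.5, 19.3 and 25.5 CPM to 31.6, 31.03 and 34.2 CPM (log2 fold change 0.48, SE 0.10, adjusted p 0.00256). PSMB3, also structural, had 1359, 1220 and 1229 counts in shCtrl and 1732, 1709 and 1723 counts in shMORC2 (log2 fold change 0.43, SE 0.08, adjusted p 0.000728). Its shMORC2 libraries were close to each other and all above shCtrl. The 5 alpha subunits that were not called, PSMA1, PSMA3, PSMA4, PSMA5 and PSMA7, had log2 fold changes from -0.02 to 0.15. Of these only PSMA1 was higher in every shMORC2 library than in every shCtrl library. For PSMA7 the replicate block gave a call (log2 fold change 0.15, adjusted p 0.0319). PSMB1 and PSMB4 were not called, at 0.10 and 0.08.

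PSMA8 and PSMB11 are core subunits of the testis and the thymus cortex. PSMA8 had 0 counts in all 6 libraries and PSMB11 had 1 count in shCtrl replicate 2 and 0 elsewhere. Neither was tested, and a difference was not detectable at this depth, where a count of 0 allows up to 3 counts in a library.

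The ATPase ring of the 19S particle was the class with the largest share of calls. PSMC1 to PSMC5 rose, 5 of 6 genes or 83.3%, against 19.9% of all genes. None fell, against 19.6% of all genes called lower. The median log2 fold change of the 6 was 0.39. PSMC3 (chromosome 11, 47418769 to 47426473, minus strand) was at 160.1, 144 and 163 CPM in shCtrl and 240.4, 237 and 260.0 CPM in shMORC2, which is 155 ± 10.3 against 246 ± 12.3 CPM (SD, n = 3). Its log2 fold change was 0.66 (SE 0.08, adjusted p 2.90e-05). PSMC4 (chromosome 19, 39971005 to 39981441, plus strand) gave nearly the same change from a lower level, with 47.3, 43.3 and 45.5 CPM against 70.9, 69.4 and 74.8 CPM (log2 fold change 0.66, SE 0.07, adjusted p 2.29e-05). In both the lowest shMORC2 library was well above the highest shCtrl library. PSMC5 rose from 151, 127 and 133 CPM to 178, 178 and 181 CPM (log2 fold change 0.39, SE 0.08, adjusted p 0.00184). PSMC1 rose from 118, 98.3 and 104 CPM to 139, 133 and 136 CPM (log2 fold change 0.35, SE 0.08, adjusted p 0.00414). PSMC2 rose as well, also without overlap of the groups, and had a log2 fold change of 0.39 (SE 0.08, adjusted p 0.00152). PSMC6 was the exception, at 46.2, 47.8 and 43.5 CPM against 50.6, 49.9 and 42.1 CPM, with overlapping groups (log2 fold change 0.05, SE 0.09, adjusted p 0.660).

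Exon sharing differed within the ring. PSMC3 and PSMC4 share no exonic base with another gene of the table. Of the 6161 exonic bases of PSMC1, 4671 also lie in exons of NRDE2 on the other strand, and NRDE2 was not called (log2 fold change 0.02, adjusted p 0.888). PSMC5 shares 874 of 4490 bases with FTSJ3 on the other strand, which rose (log2 fold change 0.20, adjusted p 0.0410).

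Among the 11 non-ATPase subunits of the 19S particle, 3 rose, a share of 27.3% against 19.9% of all genes. None fell, against 19.6% of all genes called lower. The median log2 fold change of the 11 was 0.13. PSMD11, a lid subunit, rose from 68.6, 62.2 and 65.6 CPM to 95.2, 88.7 and 95.6 CPM (log2 fold change 0.51, SE 0.08, adjusted p 0.000174). PSMD14, the deubiquitinase of the lid, rose from 70.1, 60.7 and 62.9 CPM to 81.7, 75.4 and 76.9 CPM (log2 fold change 0.27, SE 0.08, adjusted p 0.0154). PSMD7, its inactive partner in the lid, rose from 346, 328 and 349 CPM to 389, 391 and 398 CPM (log2 fold change 0.21, SE 0.07, adjusted p 0.0318). The rises of PSMD14 and PSMD7 were small beside that of PSMD11 and their calls were less firm. Without shCtrl replicate 2 or 3 the adjusted p of PSMD14 was 0.0713 and 0.0647. PSMD7 lost its call without shCtrl replicate 2 or 3 and without shMORC2 replicate 2 or 3, with adjusted p of 0.110, 0.0708, 0.0834 and 0.0908, and when every gene with a count was tested (adjusted p 0.0526). With the replicate block PSMD8 (adjusted p 0.00573) and PSMD12 (adjusted p 0.0101) were called higher as well, which made 5 of 11. PSMD12, not called in the main test, was higher in every shMORC2 library than in every shCtrl library.

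PSMD3 and PSMD4 were lower in every shMORC2 library without being called. PSMD3, a lid subunit, was at 176, 172 and 189.9 CPM in shCtrl and 144, 153 and 168 CPM in shMORC2 (log2 fold change -0.21, SE 0.08, adjusted p 0.0560). With the replicate block it was called lower (adjusted p 0.00318). PSMD4, a ubiquitin receptor, was at 154, 161 and 159 CPM against 139.5, 145 and 153 CPM (log2 fold change -0.12, SE 0.07, adjusted p 0.213). PSMD1, PSMD2, PSMD6 and PSMD13 had log2 fold changes from -0.06 to 0.13 and overlapping groups.

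**Figure D3:**
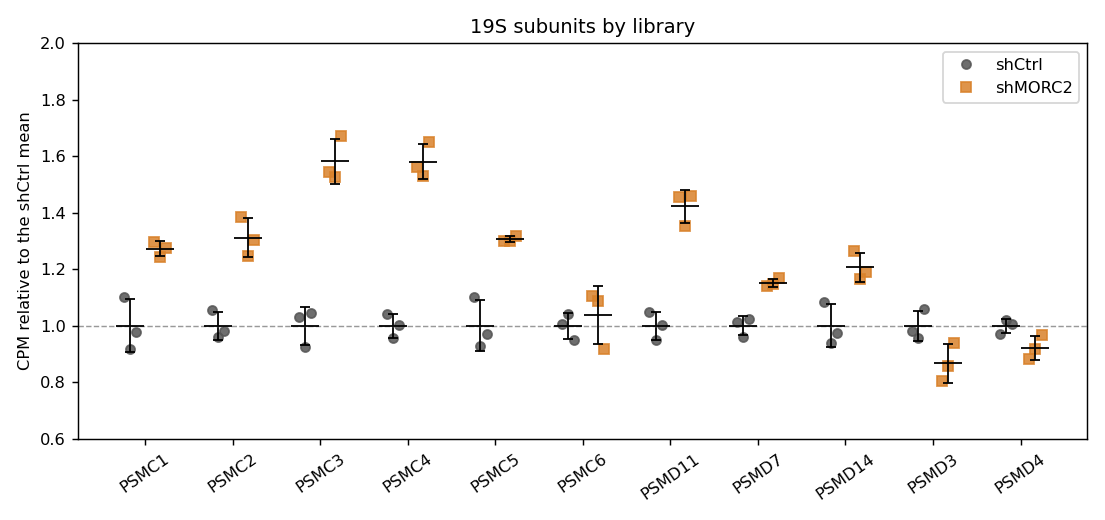
CPM of the 6 ATPase subunits and of 5 non-ATPase subunits of the 19S particle, each divided by its mean in shCtrl, in the 3 shCtrl (grey circles) and 3 shMORC2 (orange squares) libraries, with the mean (dash) and SD (bars). PSMC1 to PSMC5 lie above every shCtrl library in each shMORC2 library, PSMC6 overlaps, and PSMD3 and PSMD4 lie under 1.

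Of the 5 genes for activators that open the core without ATP and for its inhibitor, 2 rose and 1 fell, or 40% and 20%, against 19.9% and 19.6% of all genes. PSME3, whose ring is nuclear, rose from 93.1, 77.7 and 84.00 CPM to 127, 119.8 and 132 CPM (log2 fold change 0.57, SE 0.08, adjusted p 0.000149). PSME1 and PSME2 form a mixed ring that interferon induces. PSME1 was at 150.3, 151 and 164 CPM in shCtrl and 165, 192 and 188 CPM in shMORC2. Its log2 fold change was 0.23 (SE 0.08, adjusted p 0.0356), and its call was lost without shCtrl replicate 1 or 2 and without shMORC2 replicate 2 or 3, with adjusted p from 0.0849 to 0.146. PSME2 was at 40.04, 41.9 and 41.7 CPM against 36.1, 41.1 and 41.00 CPM and was not called (log2 fold change -0.07, SE 0.08, adjusted p 0.547). PSME4, a single large chain that caps the core in the nucleus, fell from 46.8, 51.4 and 50.8 CPM to 41.98, 43.1 and 39.3 CPM (log2 fold change -0.26, SE 0.08, adjusted p 0.0176). The groups did not overlap, but the call was lost without shCtrl replicate 2 or 3 or shMORC2 replicate 3 (adjusted p 0.0621, 0.0728 and 0.0850). PSMF1, an inhibitor of the core in vitro, was at 102, 103 and 111 CPM against 99.7, 105 and 112 CPM (log2 fold change 0.01, SE 0.08, adjusted p 0.951).

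**Figure D4:**
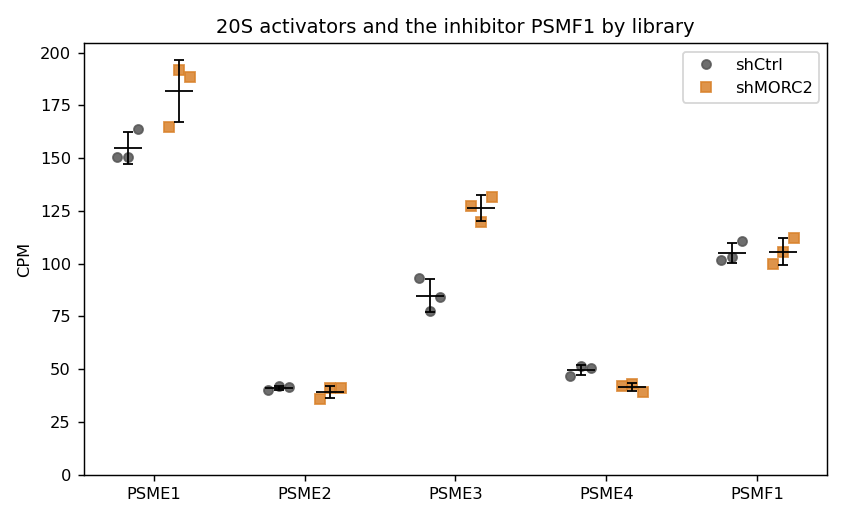
CPM of the activator genes PSME1 to PSME4 and of the inhibitor PSMF1 in the 3 shCtrl (grey circles) and 3 shMORC2 (orange squares) libraries, with the mean (dash) and SD (bars). PSME3 is higher and PSME4 lower in every shMORC2 library, and PSME2 and PSMF1 overlap between the groups.

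Of 7 assembly chaperones, 2 rose and 1 fell, or 28.6% and 14.3%, against 19.9% and 19.6% of all genes. PSMD9 and PSMD10 hold ATPase subunits while the base of the 19S particle is put together. PSMD9 rose from 48.02, 41.5 and 46.8 CPM to 61.3, 63.99 and 70.5 CPM (log2 fold change 0.52, SE 0.09, adjusted p 0.000365). PSMD10 rose from 38.9, 32.9 and 36.5 CPM to 46.8, 45.7 and 46.5 CPM (log2 fold change 0.36, SE 0.08, adjusted p 0.00355). PSMD5, another chaperone of the base, was lower in every shMORC2 library and not called (log2 fold change -0.12, SE 0.08, adjusted p 0.248). Of the 4 chaperones of the core, PSMG4 was called. PSMG4, which acts on the alpha ring, fell from 21.4, 19.8 and 20.98 CPM to 14.9, 18.02 and 15.4 CPM (log2 fold change -0.37, SE 0.10, adjusted p 0.00904), and its groups did not overlap. PSMG1, PSMG2 and PSMG3 were not called, with log2 fold changes of 0.13, -0.11 and 0.01.

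Summed over a class, the length-scaled level of the ATPases was 154 ± 9.22 RPKM in shCtrl and 223 ± 6.56 RPKM in shMORC2 (SD, n = 3), a ratio of 1.45. Of these sums, PSMC3 alone held 68.3 RPKM in shCtrl and 108 RPKM in shMORC2. The alpha subunits summed to 174 ± 12.5 against 193 ± 6.55 RPKM, a ratio of 1.11. The constitutive beta subunits summed to 153 ± 6.87 against 182 ± 7.42 RPKM, a ratio of 1.19. The non-ATPase subunits summed to 406 ± 11.03 against 438 ± 11.8 RPKM, a ratio of 1.08. The 3 immunoproteasome genes together were far below the constitutive beta subunits in both groups, at 13.2 ± 0.609 against 18.9 ± 1.15 RPKM, a ratio of 1.43. Single members ranged widely although the finished particle holds most of them in equal number. In shCtrl PSMD7 (124 RPKM) and PSMA7 (99.8 RPKM) were highest and PSMB9 (0.326 RPKM) was the lowest of those tested. Exon length here joins the exons of all annotated transcripts, so a gene with long minor transcripts reads low.

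Of 35 other genes of the pathway, 10 rose, 7 fell and 18 were not called, where 19.9% of all genes rose and 19.6% fell, with a median log2 fold change of 0.07. SHFM1 (now SEM1), a small subunit of the lid, rose from 172, 129 and 155 CPM to 260.1, 258 and 256 CPM (log2 fold change 0.76, SE 0.09, adjusted p 4.38e-05). KIAA0368 (now ECPAS), an adaptor that binds the 19S particle, fell from 81.7, 83.8 and 85.2 CPM to 57.3, 57.2 and 53.4 CPM (log2 fold change -0.58, SE 0.07, adjusted p 4.86e-05). NFE2L1, the transcription factor that raises proteasome genes when proteolysis is blocked, was not called (log2 fold change 0.14, SE 0.07, adjusted p 0.155). Every shMORC2 library was nonetheless above every shCtrl library for NFE2L1. NGLY1, the glycanase needed to activate NFE2L1, fell from 30.6, 29.8 and 31.1 CPM to 20.97, 20.9 and 20.4 CPM (log2 fold change -0.56, SE 0.08, adjusted p 0.000120).

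Among genes of peptide transport and interferon signalling, TAP2, given above, was the only one called lower. The median log2 fold change of these genes was 0.36. B2M, the light chain of MHC class I, rose from 118, 107 and 119 CPM to 205, 219 and 214 CPM (log2 fold change 0.89, SE 0.07, adjusted p 2.20e-06). NLRC5, a transactivator of MHC class I genes, was low, at 1.69, 1.49 and 2.601 CPM against 3.34, 3.15 and 2.54 CPM. Its groups overlapped (log2 fold change 0.64, SE 0.22, adjusted p 0.0317), and the call was lost without shCtrl replicate 1 or 2 or shMORC2 replicate 1 or 2, with adjusted p from 0.0717 to 0.135. TAPBP, which tethers the transporter to MHC class I, rose (log2 fold change 0.36, SE 0.09, adjusted p 0.00509), and ERAP1, ERAP2 and IRF1 were not called.

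Sharing of exons touches many members. Of the 48, 7 share exonic bases with another gene on the same strand and 18 with a gene on the other strand. Over the 23 tested members that share none, 7 were called higher and 0 lower, and their median log2 fold change was 0.14. These calls higher made up 30.4%, against 19.9% of all genes and 22.5% of genes within the members' range of mean counts. Called lower were 19.6% of all genes and 24% of genes within that range. PSMB10 shares 644 of 1853 bases with CTC-479C5.12 on its own strand, which had 440 to 559 counts in shCtrl and 414 to 481 in shMORC2. The called members PSMA6, PSMA2, PSMD9 and PSMB9 share bases on their own strand with genes whose counts exceeded theirs in every library. For PSMB9 this gene is PSMB8-AS1, given above. RP11-561B11.2, sharing 919 of 6506 bases of PSMA6, had 3053 to 3385 counts in shCtrl and 4108 to 4192 in shMORC2. RP11-111K18.1, sharing 781 of 5336 bases of PSMA2, had 1629 to 1825 and 2131 to 2161. RP11-87C12.2, sharing 1307 of 8774 bases of PSMD9, had 1790 to 2215 and 2974 to 3345. PSMD7 shares 842 of 2740 bases with AC009120.6 on the other strand, which had 7139 to 7746 counts in shCtrl and 8029 to 8618 in shMORC2. PSMD11 shares 675 of 7200 bases with RP11-227G15.12 on the other strand, which had 638 to 828 counts in shCtrl and 1380 to 1607 in shMORC2. How far shared reads entered the fold changes of these members was not tested. Of 31 pseudogenes of members in the table, 26 had at most 10 counts in every library. The highest, PSMC1P1, reached 4.28% of the count of PSMC1.

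The deposited splicing table listed 1449 events, and 1 was in a member. It joined mutually exclusive exons of PSMD5 on chromosome 9, minus strand, at 120824493 to 120824685 (193 bases) and 120831330 to 120831459 (130 bases). The table calls its groups only 1 and 2, so no inclusion level is assigned to the knockdown.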

How the data were processed

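For each of 6 libraries, prepared with a stranded mRNA kit, the authors deposited counts of reads by gene and RPKM values made from those counts. The submitters' processing notes name Trimmomatic 0.36, STAR 2.5.3a, featureCounts of Subread 1.5.1, edgeR 3.12.1 and GRCh38. The protocol tags RNA molecules with identifiers, and whether these were collapsed before counting, and the strand setting, are not given in the sources used here. Columns of per-sample values left unused numbered 0. The splicing table also holds the authors' p-values and differences, which were not used.

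The main test was the quasi-likelihood F test of edgeR 4.0.16 (R 4.3.3) after filterByExpr and TMM scaling, with group as the only term, Benjamini-Hochberg adjustment over 21005 genes and a call at an adjusted p under 0.05. The SE is the log2 fold change over the square root of F. CPM and RPKM use TMM-scaled library sizes. Counting floors cover counting error only.

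Same-numbered libraries deviated together (correlations 0.333, 0.165 and 0.149). Unlike-numbered ones gave -0.255 to 0.121, and the 0.121 of shCtrl 3 with shMORC2 2 was close to the 0.149 of the third pair. A pairing by number was thus taken from the data alone and is not established. The main test did not use it, and the replicate block was an alternative. Within groups, libraries differed beyond sampling noise (chi-square per degree of freedom 6.35 to 21.5).

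Members, lists and tests were chosen with earlier results of these data known. Values per library are given for MORC2, PSMB5 to PSMB10, PSME1 to PSME4, PSMF1, untested members, the 2 called members with the highest and the 2 with the lowest fold change in each other class (all where 4 or fewer were called), and the 3 highest and 3 lowest called genes of the related list. PSMC6, PSMD3, PSMD4, TAP1 and PSMB8-AS1, and the count over members that share no exonic base, were added after values were seen. One gene of the related list is counted in its totals and not reported here by itself. Alternatives were DESeq2 1.42.0, no TMM, 2 other filters, a replicate block, limma 3.58.1 on log2(RPKM + 1) and log2(RPKM + 0.1) of the deposited RPKM, and leaving out each library.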

Additional observations from a re-analysis of the deposited data

How the results depend on the processing

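Of the 21 calls among members, 17 held in all 6 fits that leave out one library, and 15 calls higher and 1 lower held in all 13 alternatives. The members called higher ran from 16 to 20 and those called lower from 1 to 2 over these 6 fits. They numbered 7 and 0 with a log2 fold change of at least 0.5, against 12.2% and 10.2% of all genes. The immunoproteasome count was 1 in place of 2 with limma under both pseudocounts, since PSMB9 fell under a mean of 1 RPKM and was not tested. With the replicate block 5 non-ATPase subunits were called higher and 1 lower, and besides those named the block changed no call of a member. The 1 called lower also came without TMM and with limma under both pseudocounts. Leaving out a library moved the non-ATPase calls from 1 to 4 higher and 0 to 1 lower, and the activator calls from 1 to 2 higher and 0 to 1 lower. The ratio of PSMB9 to PSMB6 differed by 0.44 on the log2 scale with 1 added to the deposited RPKM, where 1 exceeds the level of PSMB9, and leaving out a library gave 1.36 to 1.60. PSMB10 ran from -0.12 to 0.054 over the left-out libraries. PSMF1 ran from -0.033 to 0.051, and was at -0.0011 without TMM and at -0.0017 and -0.0018 with limma. Neither was called in any of these. The depth of PSMB9, at most 142 counts, limits its precision.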
